A study of Homo sapiens with 6 samples.

Results

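The genes of mitosis and of the G2/M transition were examined in cells labelled T24, a bladder carcinoma line, that had been transfected with a small interfering RNA. The list held 50 genes of 56303 in the count table, chosen by symbol for their known work in G2 or M phase and sorted here into 11 roles, from the cyclins to the transcription factors that drive the programme. T24 is an established human line derived from a bladder tumour. The study compared cells given a negative control RNA with cells given an RNA against FBXL6, harvested 48 h after transfection. The labels name these groups siNC, with genotype wild type, and siFBXL6, described as a knockdown. Its stated aim was to look for mechanisms through which FBXL6 might drive progression of bladder cancer. Polyadenylated RNA was sequenced as 3 libraries for each group, each from 2 µg of total RNA, and all 6 carry the same batch label. Total counts were 58646515, 60967902 and 56814946 in siNC replicates 1, 2 and 3 and 60968158, 60898556 and 60754015 in siFBXL6 replicates 1, 2 and 3. The numbers in the labels were read as replicate numbers: they run from 1 to 3 in both groups, whereas the study's methods name 2 RNAs against FBXL6 and 1 control. Those 2 are numbered in the same form, however, and no source used here says which RNA each library had, so the spread of the siFBXL6 group may include a difference between RNAs. Nothing in the labels says that the replicates were separate cultures, so the p-values below measure only the spread between these samples, which may be technical.

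Progression from G2 into mitosis is driven by cyclin B bound to CDK1, which CDC25 phosphatases activate. PLK1 and the Aurora kinases then build the spindle, the kinetochores attach chromosomes to it, and the spindle checkpoint holds back the anaphase-promoting complex (APC/C) until every chromosome is attached; the APC/C with CDC20 next marks securin and the cyclins for destruction, and kinesins and anillin complete cell division. Most of these genes are transcribed together late in the cycle through CHR and CCAAT elements read by the MuvB complex with MYBL2 and FOXM1 and by NF-Y, which is why their messages are widely used as a measure of proliferation in tumours.

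FBXL6, an F-box protein that selects substrates for a ubiquitin ligase, was read first because it checks the labels. Its counts were 362, 414 and 398 in the siNC libraries and 398, 344 and 350 in those labelled siFBXL6. The level after TMM scaling, in CPM (counts scaled to a library of fixed size), was 6.61 ± 0.38 in siNC and 6.03 ± 0.483 in siFBXL6 (SD, n = 3 each). The groups overlapped, since siFBXL6 replicate 1, at 6.58 CPM, was above siNC replicate 1, at 6.19 CPM. The log2 fold change, siFBXL6 over siNC, was -0.13 (SE 0.0875, 95% interval -0.31 to 0.05, edgeR quasi-likelihood test, adjusted p = 0.247), and a two-sided exact permutation test gave p = 0.2, where the smallest possible p for 3 against 3 is 0.1. SLC52A2, an antisense neighbour, covers 31.7% of the exon bases of FBXL6, and whether counting used the strand is not given in the sources used here, so part of these counts may belong to that gene. A fall of FBXL6 was therefore not measured at the RNA level in these libraries. Every direction below is a difference between libraries by their labels.

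Compared with siNC, the libraries labelled siFBXL6 held less RNA of most mitotic genes, by small amounts. All 50 members passed the filter on low counts, and 37 of them (74%) were called at an adjusted p under 0.05, against 40.2% of the 21298 genes tested. Lower calls outnumbered higher ones: 28 members (56%) fell, against 19.8% of all genes, and 9 (18%) rose, against 20.5% of all genes. The median log2 fold change of the members was -0.112, and that of all genes tested was -0.007. Without siNC replicate 1 these medians were -0.074 and -0.003. In bulk RNA, fewer cells in G2 or M phase and less of these transcripts in each cell cannot be told apart.

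The replicates were close (biological coefficient of variation 3.57%), and abundant genes, of which the members are a part, were called more often than genes at large. Among the 9636 genes at or above the lowest member's mean of 10.7 CPM, a comparison chosen after the values were seen, 60.0% were called, 28.9% lower and 31.1% higher, and the median log2 fold change was 0.000. These 9636 genes were not matched to the members in level. Their median level was 39.1 CPM and their median SE 0.0414, against 89.9 CPM and 0.0328 for the members. With a minimum size of 1.2-fold, 8 members (16%) were called, against 21.9% of all genes tested and 22.2% of the 9636. All 8 of them were lower, where 10.2% of all genes and 9.28% of the 9636 were. Of the members 0 were higher at this size, where 11.6% and 12.9% were. MAD2L1 (higher) and MYBL2 (lower) lay on the edge of this limit, just outside and just inside it, and MAD2L1 passed it under 7 of 14 alternatives: with DESeq2, with RLE scaling, with a stricter count filter, with a replicate block, and without siNC replicate 2, siNC replicate 3 or siFBXL6 replicate 1 (log2 fold change 0.30, 0.27 and 0.28). When siFBXL6 replicate 3 was left out, 5 members were at least 1.2-fold lower. Changes of at least 2-fold, which 2.92% of all genes and 0.664% of the 9636 showed, were seen in 0 members. The 3 libraries of each group did not overlap in 36 members (72%), against 48.2% of all genes and 65.8% of the 9636.

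**Figure D1:**
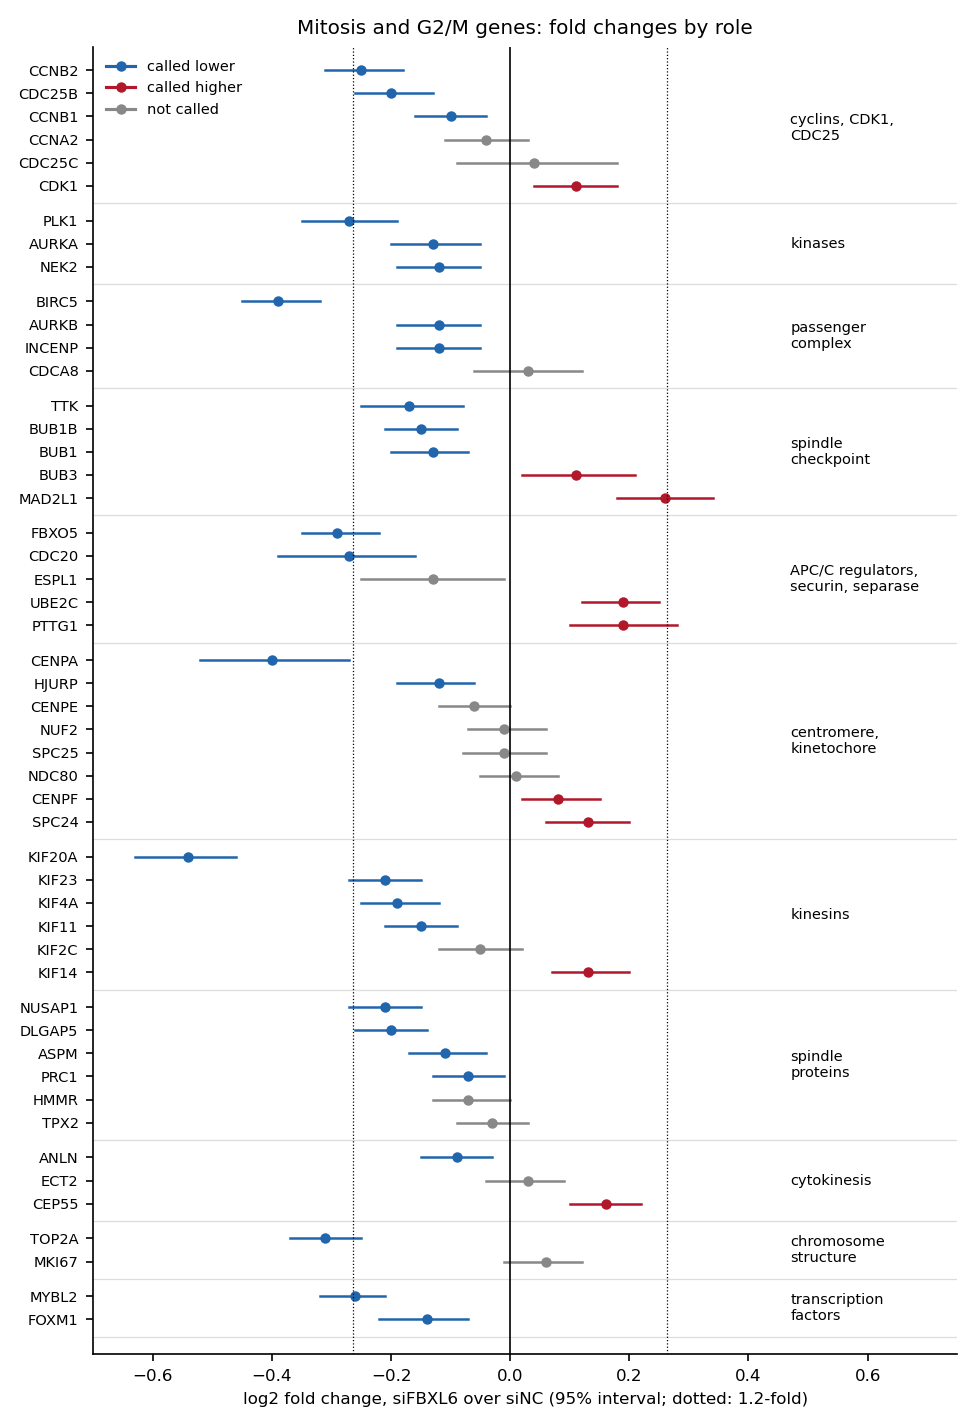
Each point is the log2 fold change of a mitosis or G2/M gene (siFBXL6 over siNC, n = 3 each) with its 95% interval, grouped by role; blue marks called lower, red called higher, grey not called, and dotted lines mark 1.2-fold. The points run from -0.54 for KIF20A to 0.26 for MAD2L1, and 28 of 50 are blue.

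Among the cyclins, CDK1 and the CDC25 phosphatases, 3 of 6 fell and 1 rose. CCNB2, a B-type cyclin, was at 88.2, 87.3 and 91.9 CPM in siNC and at 78.0, 73.5 and 74.0 CPM in siFBXL6. Every library labelled siFBXL6 was below every siNC library, and CCNB2 fell by 0.25 on the log2 scale (SE 0.0332, adjusted p = 2e-07). CCNB1, the main mitotic partner of CDK1, was at 106, 107 and 108 CPM in siNC and at 98.6, 97.9 and 103 CPM in siFBXL6. Its groups did not overlap, but the difference was slight, with a log2 fold change of -0.10 (SE 0.0315, adjusted p = 0.011). The CCNB1 call was lost when siFBXL6 replicate 1 was left out (adjusted p = 0.0653) or siFBXL6 replicate 2 (adjusted p = 0.0857, range over all alternatives 0.00194 to 0.0857). CDC25B, a phosphatase that activates CDK1, fell by 0.20 (adjusted p = 1.71e-05).

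CDK1, the kinase itself, went the other way. It was at 95.6, 103 and 103 CPM in siNC and at 112, 108 and 107 CPM in siFBXL6, with no overlap. Its log2 fold change was 0.11 (SE 0.0333, adjusted p = 0.00713), and the call was lost without siFBXL6 replicate 1 (adjusted p = 0.0688, range 0.00359 to 0.0688). CCNA2, the cyclin of S phase and G2, and CDC25C were not called, with log2 fold changes of -0.04 and 0.04. The kinase subunit was thus higher while both B-type cyclins were lower.

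All 3 mitotic kinases fell. PLK1, which acts from centrosome maturation to cytokinesis, was at 48.7, 50.7 and 50.4 CPM in siNC and at 42.1, 40.5 and 41.6 CPM in siFBXL6. The groups were well apart, and PLK1 fell by 0.27 (SE 0.0374, adjusted p = 3.43e-07); 11.6% of its exon bases lie across from an antisense gene. AURKA, the kinase of centrosomes and spindle poles, had a log2 fold change of -0.13 (adjusted p = 0.00552), a call lost without siFBXL6 replicate 1 (adjusted p = 0.0624, range 0.000761 to 0.0624). NEK2, which separates centrosomes, fell by 0.12 (adjusted p = 0.00342).

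The chromosomal passenger complex corrects faulty attachments between kinetochores and spindle, and 3 of its 4 genes fell. BIRC5 (survivin), which targets the complex to centromeres, was at 91.1, 88.5 and 92.6 CPM in siNC. In siFBXL6 it was at 70.4, 68.2 and 69.6 CPM, a narrow band far below the controls. BIRC5 fell by 0.39 on the log2 scale, or by 23.5% (SE 0.0321, adjusted p = 5.49e-12). The scaffold INCENP and the kinase AURKB fell less, each by 0.12 (adjusted p = 0.00356 and 0.00713). INCENP was at 378, 345 and 341 CPM in siNC, and without siNC replicate 1, the highest, its log2 fold change was -0.07 (adjusted p = 0.0209), a change of over 1.5 times. AURKB lost its call without siFBXL6 replicate 1 (adjusted p = 0.0609, range 0.00151 to 0.0609). CDCA8 (borealin) was not called (log2 fold change 0.03, adjusted p = 0.647).

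All 5 spindle checkpoint genes were called, but they split by direction. MAD2L1, which binds and restrains CDC20, had the highest log2 fold change of the 50 members. It was at 40.6, 45.1 and 43.9 CPM in siNC and at 50.8, 52.9 and 51.9 CPM in siFBXL6. No libraries overlapped, and MAD2L1 rose by 0.26 (SE 0.0397, adjusted p = 1.57e-06). BUB3, which recruits BUB1 and BUBR1 to kinetochores, was at 28.9, 27.6 and 30.0 CPM in siNC and at 30.6, 31.0 and 32.0 CPM in siFBXL6. Its groups did not overlap but nearly touched, and its log2 fold change of 0.11 (SE 0.0447, adjusted p = 0.0391) was not called when any library other than siNC replicate 3 was left out, with DESeq2, with upper-quartile or library-size scaling or without a filter on low counts (range 0.0187 to 0.195). The kinases TTK and BUB1 and the BUBR1 gene BUB1B fell by 0.17, 0.13 and 0.15 (adjusted p = 0.00129, 0.00122 and 9.79e-05).

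The regulators of the APC/C also moved in both directions. CDC20, its mitotic activator, was at 20.6, 20.3 and 22.9 CPM in siNC and at 18.1, 17.9 and 16.8 CPM in siFBXL6. The groups did not overlap, and CDC20 fell by 0.27 (SE 0.0559, adjusted p = 0.000146); a pseudogene copy, CDC20P1, held 2.44% as many counts. FBXO5 (EMI1), the inhibitor that keeps the APC/C off before mitosis, was at 87.8, 89.0 and 90.1 CPM in siNC and at 73.5, 74.7 and 70.6 CPM in siFBXL6. It fell by 0.29 (SE 0.0322, adjusted p = 5.74e-09), with every library labelled siFBXL6 below every siNC library. An activator and an inhibitor of the same ligase were thus both lower.

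UBE2C, the ubiquitin-conjugating enzyme that works with the APC/C, was higher. It was at 70.6, 69.9 and 71.2 CPM in siNC and at 79.3, 81.4 and 80.2 CPM in siFBXL6. UBE2C rose by 0.19 (SE 0.0318, adjusted p = 1.11e-05), with no overlap. PTTG1 (securin), the substrate that holds separase inactive, was at 29.7, 28.1 and 29.1 CPM in siNC and at 32.7, 31.5 and 34.8 CPM in siFBXL6. It too did not overlap and rose by 0.19 (SE 0.0454, adjusted p = 0.000992). ESPL1 (separase), the protease that cuts cohesin, was not called, with a log2 fold change of -0.13 (adjusted p = 0.0802, range 0.0371 to 0.421) and groups that overlapped; it was called lower with upper-quartile or library-size scaling (adjusted p = 0.0422 and 0.0383) and without siNC replicate 2 or siFBXL6 replicate 2 (log2 fold change -0.17 in each, adjusted p = 0.0371 and 0.0396), while leaving out siNC replicate 1 gave -0.07 and siFBXL6 replicate 1 gave -0.09 (adjusted p = 0.421 and 0.336). Securin rose where its partner was not called; the difference between them was not tested.

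In the centromere and kinetochore group 4 of 8 genes were called, 2 in each direction. CENPA, the histone H3 variant that marks the centromere, was at 15.9, 17.8 and 18.3 CPM in siNC and at 13.7, 12.7 and 13.0 CPM in siFBXL6. The groups were apart, and CENPA fell by 0.40, or by 24.1% (SE 0.0612, adjusted p = 2.07e-06); it shares 6.96% of its exon bases with SLC35F6 on the same strand. HJURP, the chaperone that deposits CENPA, fell by 0.12 (adjusted p = 0.00154). Among the 4 subunits of the NDC80 complex, which grips microtubules, only SPC24 was called. It was at 47.9, 47.8 and 49.5 CPM in siNC and at 52.9, 52.9 and 53.4 CPM in siFBXL6. SPC24 rose by 0.13 (SE 0.0357, adjusted p = 0.00313), whereas NDC80, NUF2 and SPC25 were not called, with log2 fold changes of 0.01, -0.01 and -0.01; the difference between subunits was not tested.

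CENPF, a large kinetochore protein, was called although its groups overlapped. It was at 1319, 1229 and 1200 CPM in siNC and at 1310, 1340 and 1324 CPM in siFBXL6, so siNC replicate 1 lay among the other group. The log2 fold change of 0.08 (adjusted p = 0.0212) was not called with upper-quartile or library-size scaling, nor when siNC replicate 2 or 3 or siFBXL6 replicate 2 or 3 was left out (range 1.19e-06 to 0.134). CENPE, the kinetochore kinesin, was not called (log2 fold change -0.06, adjusted p = 0.12, range 0.0219 to 0.305), except with upper-quartile or library-size scaling (adjusted p = 0.0402 and 0.0219) and without siNC replicate 3 (adjusted p = 0.0278).

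Among the kinesins 4 of 6 fell and 1 rose. KIF20A (MKLP2), which carries the passenger complex to the central spindle at anaphase, had the lowest log2 fold change of the list. It was at 55.5, 54.8 and 59.7 CPM in siNC and at 37.2, 39.0 and 40.4 CPM in siFBXL6, a gap wider than the spread of either group. KIF20A fell by 0.54, or by 31.4% (SE 0.0404, adjusted p = 3.59e-13). Its exons overlap those of BRD8 and CDC23 on the opposite strand by 3.34% and 1.72% of its bases. KIF23 (MKLP1), another central spindle kinesin, fell by 0.21 (adjusted p = 5.52e-07). KIF4A, which shapes chromosomes and the midzone, fell by 0.19 (adjusted p = 1.03e-05), and KIF11 (Eg5), which pushes spindle poles apart, fell by 0.15 (adjusted p = 0.000152). KIF14, a kinesin of the midbody, was at 96.6, 90.3 and 91.4 CPM in siNC and at 101, 98.8 and 105 CPM in siFBXL6. KIF14 rose by 0.13 (SE 0.0333, adjusted p = 0.00132), with no overlap. KIF2C, a microtubule depolymerase at centromeres, was not called (log2 fold change -0.05).

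Of the 6 spindle-associated proteins 4 fell and 0 rose. NUSAP1, which bundles microtubules near chromosomes, was at 295, 298 and 296 CPM in siNC and at 259, 251 and 257 CPM in siFBXL6. Both groups were tight, and NUSAP1 fell by 0.21 (SE 0.0288, adjusted p = 2.04e-07). DLGAP5 (HURP), a stabiliser of kinetochore fibres, fell by 0.20 (adjusted p = 8.78e-07). ASPM, a spindle pole protein, fell by 0.11 (adjusted p = 0.00932), a call lost without siFBXL6 replicate 1 (adjusted p = 0.0884, range 0.00109 to 0.0884). PRC1, the crosslinker of the central spindle, was the called member nearest the threshold (log2 fold change -0.07, adjusted p = 0.0437), and the call was lost without siNC replicate 1 and without any 1 of the siFBXL6 libraries (range 0.00354 to 0.145). TPX2 and HMMR, which act in spindle assembly, were not called, with log2 fold changes of -0.03 and -0.07. HMMR was called lower with upper-quartile or library-size scaling (adjusted p = 0.0424 and 0.0271) and, at -0.10, when siNC replicate 3 was left out (adjusted p = 0.028); leaving out siNC replicate 1 gave -0.03 (adjusted p = 0.536).

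In cytokinesis, 1 gene fell, 1 rose and 1 was not called. CEP55, which brings the abscission machinery to the midbody, was at 134, 131 and 134 CPM in siNC and at 146, 146 and 152 CPM in siFBXL6. It rose by 0.16 (SE 0.0307, adjusted p = 7.76e-05), with no overlap. ANLN (anillin), a scaffold of the contractile ring, had a log2 fold change of -0.09 (adjusted p = 0.0106), a call lost without siFBXL6 replicate 3 (adjusted p = 0.058, range 0.000779 to 0.058). ECT2, the exchange factor that activates RhoA at the cleavage furrow, was not called (log2 fold change 0.03).

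The pair of genes for chromosome structure are both common proliferation markers, and 1 of them was called. TOP2A, the topoisomerase that untangles sister chromatids, was at 1238, 1159 and 1126 CPM in siNC and at 929, 964 and 945 CPM in siFBXL6. Every library labelled siFBXL6 was far below the controls, and TOP2A fell by 0.31, or by 19.4% (SE 0.0302, adjusted p = 2.11e-10). MKI67, which coats mitotic chromosomes and encodes the Ki-67 antigen, was at 1065, 1003 and 935 CPM in siNC and at 1032, 1032 and 1061 CPM in siFBXL6. Its groups overlapped, with siNC replicate 1 the highest library and siNC replicate 3 the lowest, and it was not called (log2 fold change 0.06, SE 0.0327, adjusted p = 0.172). Without siNC replicate 1, MKI67 was called higher, with a log2 fold change of 0.10 (adjusted p = 0.000238, range 0.000238 to 0.827). Over all alternatives its log2 fold change ran from 0.01 to 0.10.

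Both transcription factors fell. MYBL2 (B-MYB), which turns the MuvB complex into an activator, was at 618, 606 and 604 CPM in siNC and at 526, 496 and 499 CPM in siFBXL6. The groups were far apart for this abundant gene, and MYBL2 fell by 0.26 (SE 0.029, adjusted p = 3.18e-09). FOXM1, which joins that complex in G2, was at 58.7, 57.0 and 56.5 CPM in siNC and at 53.8, 50.7 and 51.4 CPM in siFBXL6. FOXM1 fell by 0.14 (SE 0.0361, adjusted p = 0.00152), with no overlap; 15.9% of its exon bases lie across from ITFG2.

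**Figure D2:**
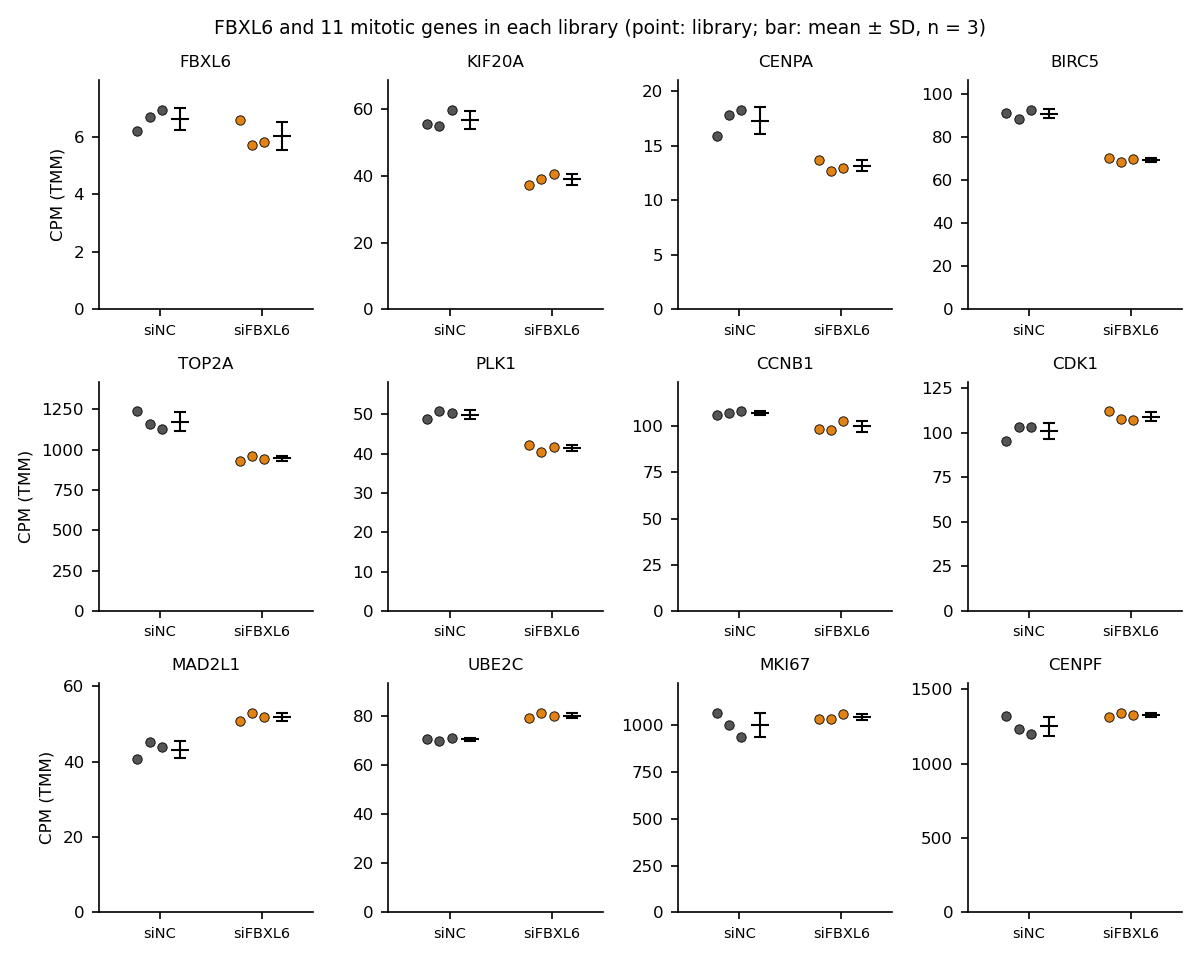
CPM of FBXL6 and 11 mitotic genes in each library (points), with mean ± SD beside them (n = 3); every axis starts at 0. The FBXL6, MKI67 and CENPF groups overlap, KIF20A, CENPA, BIRC5, TOP2A, PLK1 and CCNB1 are lower in siFBXL6, and CDK1, MAD2L1 and UBE2C are higher.

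The promoters were searched for the elements that late cell cycle genes share, because most of these genes fell together while some rose. RefSeq promoter windows (GRCh38.p14, 250 bases before to 50 after the start) were at hand for 43 of the 50 members; TPX2, TTK, FOXM1, UBE2C, BUB3, BIRC5 and AURKA had none in the table. A CHR motif, counted on either strand as TTTGAA (read backwards as TTCAAA) or as its variant letters TTTAAA and the rarer form TTCGAA, was found in 35 windows (81.4%), against 25.3% of 27305 promoters of the same length and 18% of the 11779 among them of genes tested here. A CCAAT box (CCAAT on either strand) was found in 33 (76.7%), against 35.7% of all promoters and 36.6% of those of genes tested, and both motifs together in 29 (67.4%), against 9.95% and 7.45%. E2F-like motifs, counted as TTTCCCGC, TTTGGCGC, TTTCGCGC or TTTGCCGC, were found in 3 (6.98%), against 3.33% and 5.02%. CHR matches were found in 19 of 24 windows of members that fell, in 6 of 7 of those that rose and in 10 of 12 of those not called; CCAAT boxes were found in 19 of 24, 7 of 7 and 7 of 12. These shares were not tested against each other. A match says only that the letters are there. The windows printed below were picked as examples and do not stand for all members of their direction. In the 120 bases before the start, MAD2L1 and CDK1, which rose, held no match, nor did FBXO5 and MYBL2, which fell. The 120 bases before the RefSeq start are given for 4 members that fell, 1 that rose and 1 that was not called, 5′ to 3′ on the gene's strand, with CHR and CCAAT matches in capitals (CCAAT on the other strand reads ATTGG; in PTTG1 and MKI67 a pair of matches overlap).
KIF20A, fell, chr5:138178992-138179111, plus strand: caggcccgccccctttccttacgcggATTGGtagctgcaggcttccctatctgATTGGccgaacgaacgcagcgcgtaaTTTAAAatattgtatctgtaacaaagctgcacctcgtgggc
TOP2A, fell, chr17:40417897-40418016, minus strand: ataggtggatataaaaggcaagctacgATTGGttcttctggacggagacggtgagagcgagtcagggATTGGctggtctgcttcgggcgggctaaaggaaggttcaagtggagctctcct
CDC20, fell, chr1:43358861-43358980, plus strand: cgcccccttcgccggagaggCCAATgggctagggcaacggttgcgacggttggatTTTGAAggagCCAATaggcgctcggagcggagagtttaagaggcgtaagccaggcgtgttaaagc
KIF4A, fell, chrX:70289984-70290103, plus strand: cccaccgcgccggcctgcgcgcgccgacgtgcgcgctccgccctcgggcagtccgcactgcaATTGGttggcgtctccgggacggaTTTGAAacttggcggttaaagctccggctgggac
PTTG1, rose, chr5:160421735-160421854, plus strand: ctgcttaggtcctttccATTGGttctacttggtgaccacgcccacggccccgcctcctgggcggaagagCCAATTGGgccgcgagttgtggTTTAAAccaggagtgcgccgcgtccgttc
MKI67, not called, chr10:128126424-128126543, minus strand: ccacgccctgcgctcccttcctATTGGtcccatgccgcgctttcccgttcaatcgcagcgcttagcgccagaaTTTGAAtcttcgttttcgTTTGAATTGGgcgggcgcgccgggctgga

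The windows of KIF20A, KIF4A, PTTG1 and MKI67 shared a layout, with a CHR match after 1 or more CCAAT boxes and close to the start. The first base of the CHR match lay at -41 in KIF20A, which fell most, and at -29 in PTTG1, which rose. TOP2A, which fell, held its CHR matches further upstream, at -194 and -151, outside the bases printed. PTTG1 was 1 of 7 members that rose and had a window, and its layout does not stand for them. CHR matches lay at -161 and -131 in CDK1, at 25 in MAD2L1 and at -115 and 41 in CENPF. They lay at -198 and 2 in KIF14 and at -116 and -3 in CEP55, and SPC24 had none. Positions also varied among members that fell, with a match at -29 in PLK1 and at -111 in HJURP. Whether position goes with direction was not tested.

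The members differed widely in level. On a scale of CPM per kb of exon in siNC, MYBL2 was highest at 219, followed by TOP2A at 182, TPX2 at 152, PRC1 at 110 and CENPF at 107. The lowest were BUB3 at 3.47, CDC25C at 3.46 and ESPL1 at 2.30, and the median was 25.3. Members that fell and members that rose were found at high and at low levels. The smallest count of any member in any library was 621, in CDC25C, whose log2 fold change also had the largest standard error; standard errors ran from 0.0283 to 0.067. The median coefficient of variation across members was 2.78% among the siNC libraries and 2.00% among those labelled siFBXL6.

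**Figure D3:**
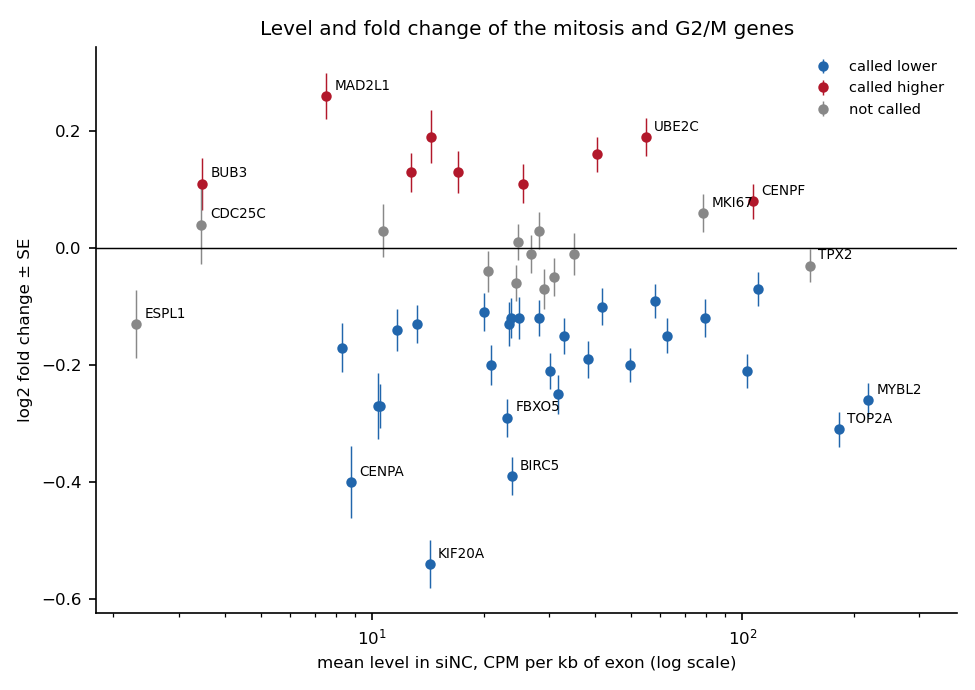
Log2 fold change ± SE of each member (siFBXL6 over siNC) against its mean siNC level in CPM per kb of exon, on a log axis; blue is called lower, red called higher and grey not called. Called genes lie at both ends of the level axis, from BUB3 at 3.47 to MYBL2 at 219.

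Library by library, the members together took 10319, 9895 and 9811 CPM in siNC and 9377, 9447 and 9464 CPM in siFBXL6. The sums did not overlap, at 10008 ± 272 and 9429 ± 45.8 CPM (SD, n = 3 each), a difference of -5.78%. MKI67, TOP2A and CENPF made up 33.2% to 35.3% of each sum; without these 3, a choice made after the values were seen, the sums were 6583 ± 101 and 6117 ± 14.5 CPM, a difference of -7.09%. Relative to the siNC mean of each gene, the median member was at 0.020, -0.020 and 0.002 on the log2 scale in the siNC libraries and at -0.106, -0.094 and -0.093 in those labelled siFBXL6. The siNC replicate 1 library held 32 of 50 members above the siNC mean and siNC replicate 2 held 13, while the libraries labelled siFBXL6 held 12, 16 and 16. Without siNC replicate 1 the median log2 fold change of the members was -0.074 in place of -0.112, a change of over 1.5 times.

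**Figure D4:**
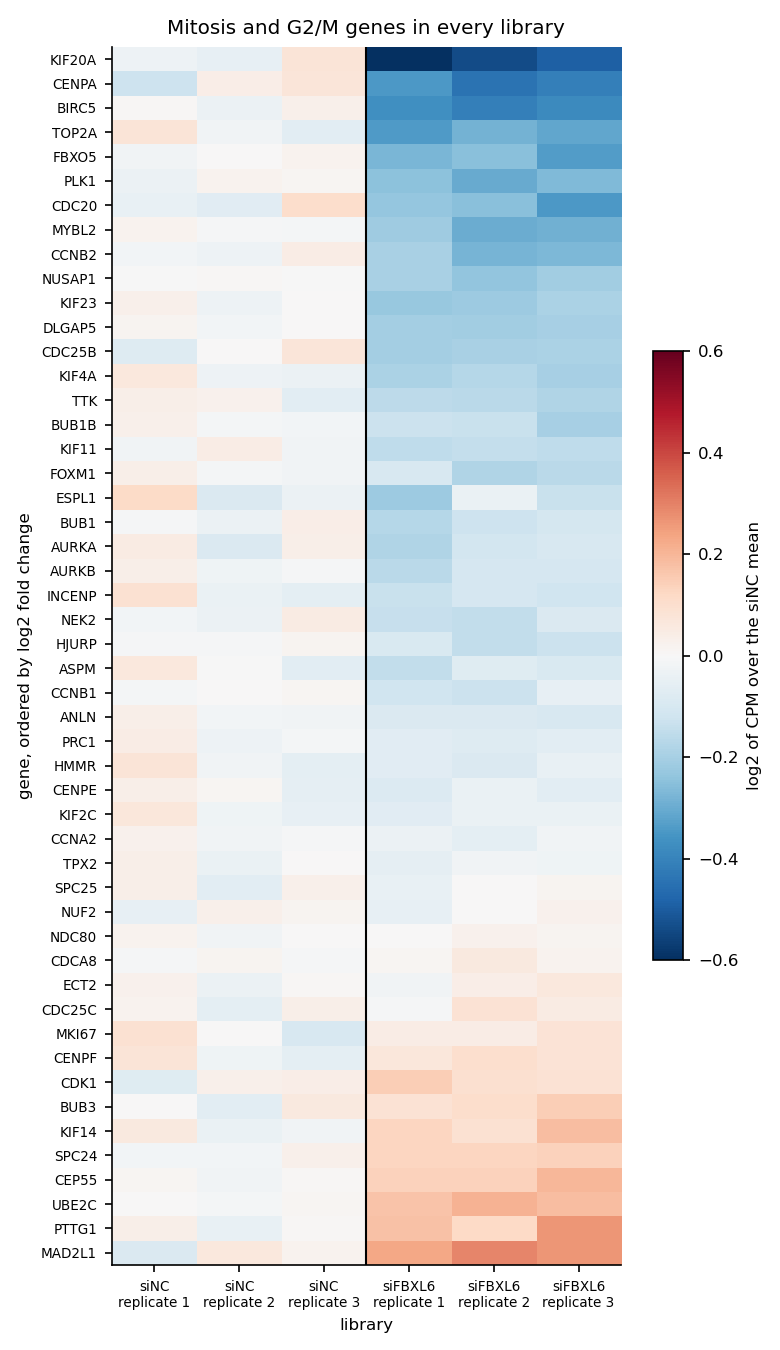
Heat map of the 50 members (rows, ordered by log2 fold change) in the 6 libraries (columns), coloured by log2 of CPM over the gene's siNC mean. Blue fills the upper rows in all 3 siFBXL6 columns, deepest for KIF20A, and red the lowest rows, deepest for MAD2L1, while the siNC columns stay pale.

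Other genes of the same pathway were counted for comparison. The share called was 58% of other G2/M genes, 65.5% of other centromere and kinetochore genes and 68.8% of APC/C genes. It was 41.2% of cohesin and condensin genes and 40.9% of the MuvB, DREAM and RB family listed with NF-Y. It was 47.6% of regulators of G2 entry and CDK inhibitors and 68% of replication genes. These shares stand against 40.2% of all genes and 60.0% of those at or above the lowest member's level. The genes named below were picked for small p-values or for their role and do not stand for their lists. Of 50 further G2/M genes, all tested, 22 fell and 7 rose, with a median log2 fold change of -0.054. TACC3, which stabilises kinetochore fibres, fell by 0.34 (adjusted p = 3.58e-11), and the chromokinesin KIF22 fell by 0.36 (adjusted p = 9.99e-11). SKA1, a kinetochore protein of low abundance, was at 4.74, 4.44 and 4.49 CPM in siNC and at 8.29, 7.38 and 7.58 CPM in siFBXL6. It rose by 0.77 (SE 0.0874, adjusted p = 7.45e-09), further than any of the 50 members moved. Of 29 other centromere and kinetochore genes 13 fell and 6 rose (median -0.062); PMF1, of the MIS12 complex, fell by 0.49 (adjusted p = 3.39e-10), whereas the CENP-T partner CENPW and CENPQ each rose by 0.28 (adjusted p = 2.1e-08 and 4.6e-08).

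Of 16 APC/C genes 6 fell and 5 rose (median -0.082): the small subunits ANAPC13 and ANAPC15 rose by 0.49 and 0.32 (adjusted p = 7.25e-12 and 9.28e-10) and the subunit ANAPC7 fell by 0.26 (adjusted p = 2.28e-06). Of 17 cohesin and condensin genes 4 fell and 3 rose (median -0.031); the cohesin core subunit SMC1A rose by 0.30 (adjusted p = 1.03e-09), and the condensin subunits NCAPH2 and NCAPD2 fell by 0.25 and 0.12 (adjusted p = 0.000139 and 0.00427), though NCAPD2 was not called without siFBXL6 replicate 3 (adjusted p = 0.0558). A list of 22 genes held the MuvB, DREAM and RB family, which read the CHR and E2F elements, and NF-Y, which reads CCAAT. Of these 22 genes 5 fell and 4 rose (median -0.038). The NF-Y subunits NFYB and NFYC were among those that fell, by 0.16 and 0.21 (adjusted p = 0.000252 and 0.000676). NFYA was not called (log2 fold change -0.01). The repressors E2F7 and RBL2 (p130) rose by 0.37 and 0.36 (adjusted p = 1.83e-10 and 1.12e-08), and E2F3, an activator, fell by 0.17 (adjusted p = 1.05e-05). RB1, also a repressor, had the lowest log2 fold change of this list, -0.38 (adjusted p = 0.0155), and was not called without siNC replicate 2, siFBXL6 replicate 1 or siFBXL6 replicate 3 (adjusted p = 0.0938, 0.0637 and 0.074). Repressors were thus called in both directions.

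Of 22 regulators of G2 entry and CDK inhibitors 21 were tested, 5 fell and 5 rose (median -0.049). Most of these genes restrain the cycle, but CDC25A, MASTL, ENSA and ARPP19 promote entry into mitosis: CDC25A and MASTL fell by 0.18 and 0.15 (adjusted p = 0.00497 and 0.00159), ARPP19 rose by 0.11 (adjusted p = 0.00327), and ENSA was not called (log2 fold change 0.07, adjusted p = 0.0666), except with DESeq2 (adjusted p = 0.0445) and without siNC replicate 1 (adjusted p = 0.0149). SFN (14-3-3 sigma), which holds CDK1 and cyclin B in the cytoplasm, was at 136, 138 and 134 CPM in siNC and at 228, 210 and 216 CPM in siFBXL6. SFN rose by 0.68 (SE 0.0322, adjusted p = 2.64e-18), with no overlap. GADD45A, a stress-induced inhibitor of CDK1, rose by 0.34 (adjusted p = 1.28e-10), and WEE1, the kinase that phosphorylates CDK1 to keep it inactive, fell by 0.28 (adjusted p = 1.92e-07).

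DNA replication and G1/S genes are used by cycling cells before mitosis. Of 50 of them 28 fell and 6 rose, with a median log2 fold change of -0.123 beside -0.112 for the mitosis and G2/M genes. CDCA7 and MCM3 fell by 0.50 and 0.34 (adjusted p = 2.69e-12 and 1.21e-11), and GINS1, of the replicative helicase, rose by 0.44 (adjusted p = 3.07e-12). The replication list thus had a median as low as that of the mitotic list, and nothing particular to mitosis is read from these counts; the lists were not tested against each other.

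**Figure D5:**
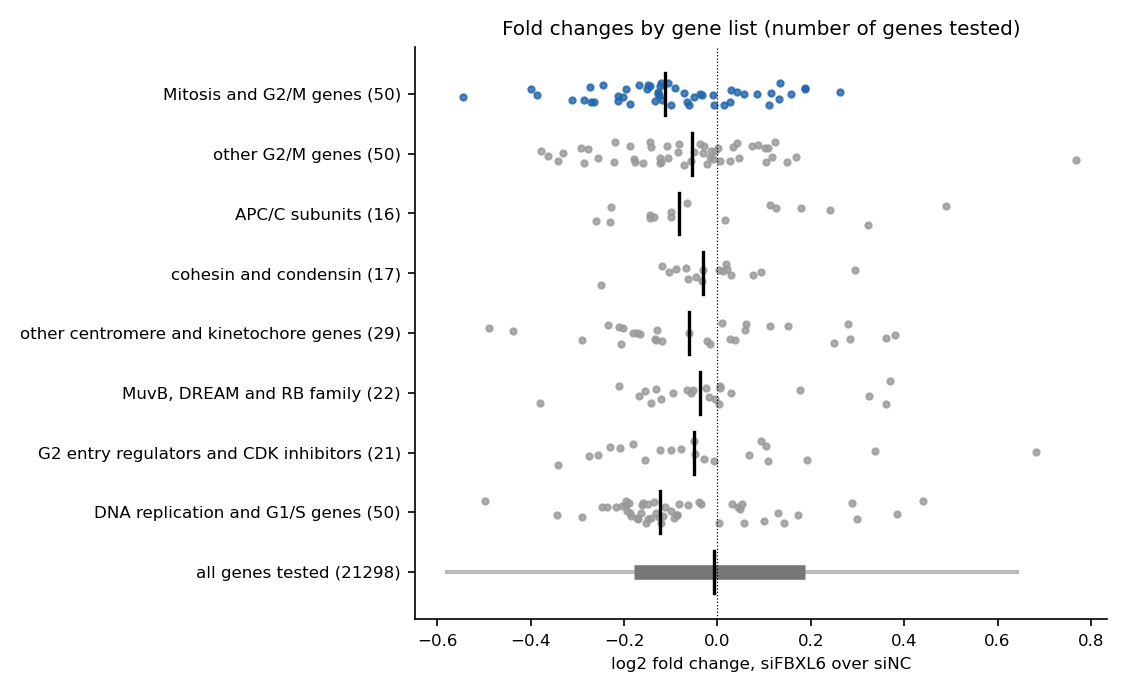
Log2 fold change (siFBXL6 over siNC) of each gene of the mitosis and G2/M list (blue points) and of 7 other lists (grey points), with the number tested; black ticks are medians, and for all 21298 genes the thick bar spans the 25th to 75th and the thin line the 5th to 95th percentile. The median ticks lie at -0.112 for the mitosis and G2/M genes, -0.123 for the replication list and -0.007 for all genes.

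The cell type was checked on markers. Keratins and EPCAM, of epithelial cells, were high in every library (KRT7 at a median of 1004 CPM, KRT8 at 770 CPM, KRT18 at 379 CPM, KRT19 at 672 CPM and EPCAM at 258 CPM). Together these 5 took 3298, 3180 and 3278 CPM in siNC and 2955, 2940 and 2947 CPM in siFBXL6, with no overlap. KRT7, KRT8, KRT19 and EPCAM fell by 0.08, 0.29, 0.15 and 0.15 (adjusted p = 0.0187, 2.03e-10, 3.41e-05 and 0.000285), and KRT18 was not called (log2 fold change 0.00). KRT7 was not called without siFBXL6 replicate 1 or 3 (adjusted p = 0.074 and 0.107). The uroplakins of mature urothelium were absent or near 0: UPK1A had 0 counts in all 6 libraries, UPK1B and UPK3A at most 0.0993 CPM, and UPK2 a median of 1.23 CPM. The urothelial transcription factors PPARG and GATA3 were at medians of 64.7 and 11.5 CPM; GATA3 fell by 0.53 (adjusted p = 7.57e-08) and PPARG was not called (log2 fold change -0.07), except with upper-quartile or library-size scaling (adjusted p = 0.0441 and 0.0346). Of the mesenchymal genes of invasive carcinoma lines, CDH2 was at a median of 114 CPM, VIM was low at 15.1 to 26.0 CPM and ZEB1 was at 1.11 CPM. VIM rose by 0.70 and CDH2 fell by 0.59 in the libraries labelled siFBXL6 (adjusted p = 2.57e-13 and 3.8e-17), and the part of such shifts in the mitotic genes was not tested. All 5 leukocyte and all 3 endothelial markers stayed at or under 1.79 CPM, and COL1A1, at a median of 33.2 CPM, was the only fibroblast marker of 4 above 1.86 CPM. COL1A1 fell by 0.15 (adjusted p = 0.00427), and the fibroblast markers summed to 36.9, 39.2 and 36.4 CPM in siNC and to 34.2, 33.9 and 32.9 CPM in siFBXL6, with no overlap. The endothelial markers summed to 1.85, 1.59 and 1.72 CPM in siNC and to 2.38, 2.15 and 3.20 CPM in siFBXL6, near 0 in all, although PECAM1 rose by 1.28 (adjusted p = 4.4e-05). The study, which also used another bladder line, says in its methods that short tandem repeats served to authenticate its lines; whether the levels above are those of the labelled line was not tested from these counts.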

How the data were processed

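Stranded mRNA libraries were sequenced on DNBSEQ-T7. The authors deposited a table of gene counts (featureCounts, Subread 1.5.1, GRCh38). The study's methods name Trimmomatic and HISAT2, whereas the submitters' processing notes name fastp 0.23.0 and STAR; which made the table, the annotation release and the strand and overlap settings are not given in the sources used here. Antisense neighbours, overlapping genes and pseudogenes can therefore share counts. From the deposited counts, edgeR 4.0.16 in R 4.3.3 was used for all differential tests: filterByExpr kept 21298 genes of 56303 (38192 had a count), TMM scaling, quasi-likelihood F-test, Benjamini-Hochberg adjustment over all genes tested, called at an adjusted p under 0.05. CPM uses TMM scaled library sizes. The fit was tested on simulated data. Replicates of a group differed by more than counting noise (chi-square per degree of freedom 2.85 to 6.2), so none was taken for a repeat deposit.

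Alternatives were DESeq2 1.42.0, RLE, upper-quartile and library-size scaling, other count filters, an adjusted p under 0.01, a replicate block and leaving out each library. The members, roles and other lists were chosen with earlier results of these data known. Values in every library are given for called members with the 8 highest and 8 lowest log2 fold changes, the called member with the largest change in each role, and MKI67, CCNB1, CDK1, FOXM1 and MYBL2; CENPF was added after its values were seen. Of the other lists, the 3 genes with the smallest adjusted p and any called gene at least 2-fold changed are named. RB1, the NF-Y subunits and the promoters of mitotic entry among the regulators of G2 entry were added after their values were seen. Older symbols were matched (PIMREG, JPT1, CENPS, CENPX, KNL1); CENPR found no match. Protein sequences were not analysed here.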

Additional observations from a re-analysis of the deposited data

How the results depend on the processing

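The 50 members gave 700 values under 14 alternatives: 658 had the same call as the main test, 31 lost a call, 11 gained one and 0 of the called changes reversed, with 13 members affected. Of the 658, 8 values near 0 changed sign, all of them uncalled and in NDC80, NUF2 or SPC25. The count of members called was 30 to 38 with 1 library left out (7 to 9 higher, 23 to 30 lower), 36 with DESeq2 and 32 at an adjusted p under 0.01. At least 1.2-fold, 5 to 10 members were called with 1 library left out (0 to 1 higher, 5 to 9 lower). The count of higher members at this size was 1 with DESeq2, with RLE scaling, with 10 counts in every sample, with the replicate block and without siNC replicate 2, siNC replicate 3 or siFBXL6 replicate 1, in place of 0; that gene was MAD2L1, which lies at the limit. The members' median log2 fold change was -0.132 with upper-quartile and -0.134 with library-size scaling, where the median of all genes moved as well, to -0.026 and -0.029, and the difference between them stayed at -0.105. With 1 library left out the members' median ran from -0.119 to -0.074 and the difference from -0.113 to -0.070; the cause was not tested.

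Same-numbered replicates did not deviate together (correlations -0.0263, 0.00319 and 0.016), so the samples share only a number. With a replicate block 37 members and 8408 genes were called, in place of 37 and 8569. With 1 library left out 7451 to 8298 genes were called. FBXL6 was not called under any alternative (log2 fold change -0.20 to -0.09, adjusted p = 0.112 to 0.521). The summed CPM of the members differed by -7.19% to -4.34% over all scalings, filters and left-out libraries. Standard errors ran from 0.0283 to 0.067 and were largest for CDC25C, which held the smallest count. The limits are 3 libraries a group, of unknown relation to separate cultures, and shared counts between overlapping genes. A fall of the target was also not measured in these libraries.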
